A study of Mus musculus with 9 samples.

Results

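The 7 chemokine receptor genes Cxcr6, Ccr2, Cxcr3, Ccr9, Ccr8, Cxcr4 and Ccr7, were followed in invariant natural killer T cells of the type 1 subset (iNKT1) from 3 tissues. They were chosen as a list by symbol, and all 7 are among the 14004 genes of the deposited table. 6 of them were among the 13309 genes that passed the filter on low values before testing. The filter asked for a value of at least 1 in 3 or more libraries, and Ccr7 reached it in 2, liver replicates 1 and 2. RNA-seq was made from 3 thymus, 3 liver and 3 spleen libraries of untreated C57BL/6 mice, all with the genotype Tbx21CreTg;Rosa26-LSL-YFP+/+. In such mice a Cre recombinase under control of Tbx21 removes a stop cassette in front of a yellow fluorescent protein, which marks cells that have expressed Tbx21, the gene of the transcription factor T-bet. The marking records past expression, and every library carries these alleles. The labels give neither the age of the mice nor the number of animals behind a library, and the sorting gate is not given in the sources used here.

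Chemokine receptors are G protein-coupled receptors that direct cells along gradients of secreted chemokines. CXCR6 binds CXCL16, which is displayed in liver sinusoids, and is a known retention receptor of iNKT cells in the liver. CXCR3 binds the interferon-induced CXCL9, CXCL10 and CXCL11, and CCR2 binds CCL2 and its relatives. CCR9 binds CCL25, made in thymus and small intestine, and CCR8 binds CCL1. CXCR4 binds CXCL12, and CCR7 binds CCL19 and CCL21 and brings naive T cells into lymph nodes. These statements are background and were not measured here.

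The positions of the genes bear on how far the values can be assigned to a gene. In the GENCODE M21 annotation of GRCm38, the assembly that mm10 denotes, Cxcr6 (ENSMUSG00000048521) lies on the plus strand at chr9:123806475-123811760, within the span of Fyco1 on the other strand, with 0 of its 1931 exon bases shared. Ccr9 (ENSMUSG00000029530) lies at chr9:123678439-123784330 on the plus strand, Ccr2 (ENSMUSG00000049103) at chr9:124101950-124113557 on the plus strand and Ccr8 (ENSMUSG00000042262) at chr9:120092114-120094906 on the plus strand. Cxcr3 (ENSMUSG00000050232) lies at chrX:101731535-101734269, Cxcr4 (ENSMUSG00000045382) at chr1:128588199-128592293 and Ccr7 (ENSMUSG00000037944) at chr11:99144196-99155077, all 3 on the minus strand. Of the 10260 exon bases annotated to Ccr9, 2201 (21.5%) are shared with other genes, Slc6a20a among them, and the strand setting of the counting is not given in the sources used here. Reads in those bases cannot be assigned to Ccr9 alone.

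The 250 bases before the RefSeq start (GRCm38.p6) were searched on both strands for 4 motifs: TGTGGT (RUNX), GGTGTGA (T-box), GGGTGTG (KLF) and TGANTCA (AP-1). The T-box and KLF motifs share the letters GGTGTG. 6 of the 7 genes matched an entry, and the other is Ccr7. Of 32851 promoters of the same length in the table, 14.0% hold the RUNX letters, 3.33% the T-box letters, 6.93% the KLF letters and 6.75% the AP-1 letters. A RUNX match starts 10 bases before the RefSeq start of Cxcr6 and another 110 bases before that of Cxcr3. RefSeq and GENCODE place some starts differently. The Cxcr3 match lies inside the GENCODE span of Cxcr3 given above, and the Ccr9 window lies wholly inside that of Ccr9. The windows of Ccr9, Ccr8, Ccr2 and Cxcr4 hold none of the 4 letter strings, which says nothing about the factors. The windows below are those of the 2 genes with a match and of the 2 genes with the largest differences between tissues, at chr9:123806227-123806476 (Cxcr6, plus strand), chrX:101734148-101734397 (Cxcr3, minus strand), chr9:123766961-123767210 (Ccr9, plus strand) and chr9:120091883-120092132 (Ccr8, plus strand). Capitals mark the RUNX match, which lies on the opposite strand in both genes.
Cxcr6: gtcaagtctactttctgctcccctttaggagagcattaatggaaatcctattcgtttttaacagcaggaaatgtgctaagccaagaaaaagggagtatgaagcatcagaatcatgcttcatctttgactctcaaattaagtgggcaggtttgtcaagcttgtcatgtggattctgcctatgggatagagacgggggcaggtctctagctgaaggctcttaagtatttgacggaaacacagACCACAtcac
Cxcr3: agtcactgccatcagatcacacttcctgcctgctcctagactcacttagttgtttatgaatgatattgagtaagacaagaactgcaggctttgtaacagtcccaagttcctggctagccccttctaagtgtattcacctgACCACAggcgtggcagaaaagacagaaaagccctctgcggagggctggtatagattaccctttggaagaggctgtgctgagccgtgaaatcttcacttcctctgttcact
Ccr9: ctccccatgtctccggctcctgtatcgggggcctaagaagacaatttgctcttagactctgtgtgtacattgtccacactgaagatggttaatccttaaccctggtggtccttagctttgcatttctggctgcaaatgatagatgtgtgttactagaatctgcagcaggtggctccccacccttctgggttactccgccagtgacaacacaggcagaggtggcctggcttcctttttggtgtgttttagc
Ccr8: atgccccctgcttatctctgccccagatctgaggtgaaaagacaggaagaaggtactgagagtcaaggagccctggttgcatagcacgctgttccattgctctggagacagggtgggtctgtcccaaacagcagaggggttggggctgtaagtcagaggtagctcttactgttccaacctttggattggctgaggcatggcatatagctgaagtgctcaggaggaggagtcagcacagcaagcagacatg

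Values are the authors' normalised read counts. Low values are spaced by a constant step per library, which returned the underlying reads: 18487219 to 27700898 for thymus libraries, 27695107 and 31586976 for liver replicates 1 and 2, only 3871264 for liver replicate 3, and 32512027 to 39604258 for spleen libraries. All 10 iNKT and T cell markers checked, among them Cd3e, Zbtb16, Tbx21 and Il2rb, had reads in every library. B cell markers (6 of 8 measured) summed to 0.126 to 304, 5.95 to 759 and 65.9 to 4283 in thymus, liver and spleen, with spleen replicate 1 and liver replicate 1 the highest. Myeloid markers (6 of 10) summed to 92.3 to 315, 25.6 to 1301 and 56.9 to 3059 in thymus, liver and spleen, again highest in the same 2 libraries. Plasmacytoid dendritic cell markers (5 of 7) summed to 129 to 1286, 833 to 1453 and 762 to 1114, and conventional naive T cell markers (5 of 6) to 32079 to 54407, 5698 to 10441 and 12459 to 24660, the last led by Il7r. Immature thymocyte markers (7 of 9), led by Cd4, summed to 2127 to 7403, 6693 to 9119 and 5473 to 10089. Hepatocyte markers (6 of 8) summed to 110 to 868, 1390 to 1717 and 0.525 to 40.5. Natural killer cell markers (6 of 6), led by Gzma and Klre1, summed to 6791 to 13290, 1851 to 6627 and 750 to 1360. The 3 tissues did not overlap in this sum, with the thymus highest as for Ccr8. Gzma, Klre1, Klri2 and Klra8 had their highest mean in the thymus. Ncr1 and Eomes had theirs in the liver, and Ncr1 was unread in every thymus library. Markers of the iNKT17 subset (4 of 7) summed to 0.0813 to 25.2, 3.02 to 318.5 and 95.7 to 292, higher in every spleen than in every thymus library, as for Ccr9. Their liver sums overlapped those of the thymus, unlike Ccr9. In spleen replicate 1, Blk, also listed as a B cell marker, gave 198 of the 292. Markers of the iNKT2 subset (7 of 7) summed to 10410 to 18012, 10924 to 13305 and 17316 to 19374, and erythroid markers (5 of 6) to 2.45 to 287, 10.2 to 211 and 56.2 to 606. The part of such cells in the receptor differences was not tested. Y-linked reads were nearly absent from the libraries numbered 2 (6 to 21 reads, against 1454 to 17141 in the others). The labels name no batch, and replicates are independent samples by the design text without a statement on animals, so p-values measure the spread between these samples.

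Cxcr6 was lowest in the thymus, intermediate in the spleen and highest in the liver. It stood at 16103, 12203 and 20490 in thymus replicates 1, 2 and 3, at 39291, 37694 and 40589 in the liver and at 21071, 27996 and 34515 in the spleen. All 3 liver values lay above all spleen values, and all spleen values lay above all thymus values, although the lowest spleen and the highest thymus value were close. The means were 16265 ± 4146, 39191 ± 1450 and 27861 ± 6723 (SD, n = 3 per tissue). Cxcr6 was 2.41-fold higher in liver than in thymus, a log2 fold change of 1.30 (SE 0.22, adjusted p = 0.0197 by limma-trend). In spleen it was 1.71-fold the thymus mean, and this difference did not pass (log2 fold change 0.78, adjusted p = 0.182 by limma-trend).

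Ccr2, a receptor best known from monocytes and also present on memory-type T cells, followed the same order. It stood at 8746, 8193 and 5586 in the thymus, at 16579, 18386 and 19011 in the liver and at 10294, 13537 and 12595 in the spleen. The 3 tissues did not overlap, with liver highest and thymus lowest. The means were 7508 ± 1688, 17992 ± 1263 and 12142 ± 1668 (SD, n = 3). Ccr2 was 2.40-fold higher in liver than in thymus (log2 fold change 1.29, SE 0.23, adjusted p = 0.0267 by limma-trend), while its 1.62-fold difference between spleen and thymus did not pass (log2 fold change 0.71, adjusted p = 0.252 by limma-trend). Myeloid marker sums in liver replicates 1, 2 and 3 were 1301, 25.6 and 542, and in the thymus 315, 92.3 and 99.3; their part in the Ccr2 difference was not tested.

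Cxcr3, the receptor for interferon-induced chemokines, stood at 7054, 2142 and 2578 in the thymus, at 8038, 8499 and 7183 in the liver and at 6088, 5904 and 6230 in the spleen. Thymus replicate 1 lay within the range of the peripheral libraries, whereas thymus replicates 2 and 3 lay far below them. The means were 3925 ± 2719, 7907 ± 668 and 6074 ± 164 (SD, n = 3). Neither the 2.02-fold difference of liver from thymus (log2 fold change 1.22, SE 0.38, adjusted p = 0.228 by limma-trend) nor the 1.55-fold difference of spleen from thymus (0.84, adjusted p = 0.402 by limma-trend) passed. This rested on thymus replicate 1: without it, Cxcr3 passed in both, with adjusted p-values by limma-trend of 0.00949 and 0.0486 and log2 fold changes of 1.75 and 1.37.

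**Figure D1:**
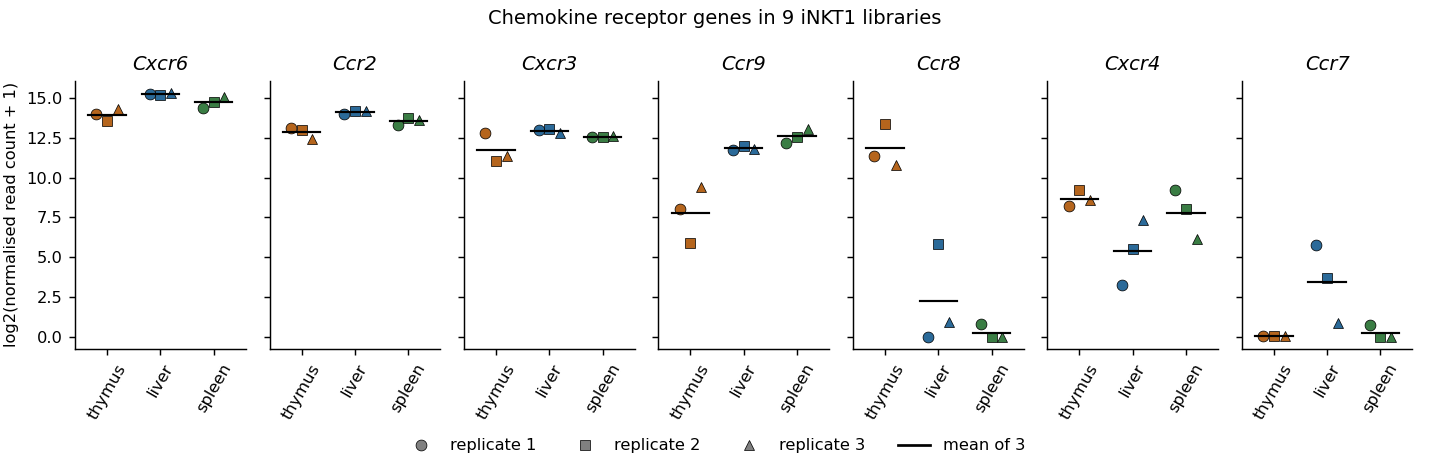
Normalised read counts of the 7 receptor genes as log2(value + 1) in each library, by tissue; symbols give the replicate and the line is the mean of 3. Cxcr6, Ccr2 and Ccr9 are lowest in the thymus libraries, Ccr8 is high in the thymus alone, and Ccr7 has reads in liver replicates 1 and 2. Values are not scaled to gene length, so heights are comparable within a panel.

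Ccr9 rose in both peripheral tissues. It stood at 262, 59.0 and 693 in the thymus, at 3383, 4055 and 3556 in the liver and at 4601, 6020 and 8581 in the spleen. Every peripheral value lay far above the highest thymus value, and the spleen values lay above all liver values. The means were 338 ± 324, 3665 ± 349 and 6401 ± 2017 (SD, n = 3). Ccr9 was 10.8-fold higher in liver than in thymus (log2 fold change 4.04, SE 0.67, adjusted p = 0.0197 by limma-trend) and 18.9-fold higher in spleen than in thymus (4.80, SE 0.67, adjusted p = 0.00386 by limma-trend). The fold rests on which thymus libraries are used: without thymus replicate 3, which has the highest thymus Ccr9, it was 22.8 in liver and 39.8 in spleen (log2 fold changes 4.86 and 5.62). Among the thymus libraries, thymus replicate 3 was also the highest for Rag1 at 486, Cd8a at 257 and Arpp21 at 153, genes of immature thymocytes. Of the same list, Cd8b1 at 28.9 and Dntt at 11.3 were also highest there. Cd4 was lowest there at 985, and Cd24a, at 205, was below its 378 in thymus replicate 1. The sum of the list was lowest in thymus replicate 3, at 2127. The part of these genes was not tested. Plasmacytoid dendritic cells also carry CCR9. Among their markers, Spib had 0 reads in the thymus libraries and stood at 13.9, 0 and 7.19 in the liver and at 141, 134 and 200 in the spleen, highest in spleen replicate 3 like Ccr9, while the sum of the 5 measured markers was lowest in that spleen library, at 762. The part of such cells in the Ccr9 difference was not tested. Thymus replicate 2, with the lowest Ccr9, is the thymus library with nearly no Y-linked reads; without it the folds were 7.67 and 13.4. Over the libraries numbered 1 and 3 alone, Ccr9 passed in spleen against thymus (adjusted p = 0.0189 by limma-trend) and not in liver against thymus (adjusted p = 0.112 by limma-trend), with log2 fold changes of 3.88 and 3.02.

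Ccr8 showed the opposite pattern, a receptor read almost exclusively in thymus libraries. It stood at 2610, 10829 and 1799 in the thymus (2328, 9363 and 1435 reads). In the liver it had 0, 65 and 0 reads, and in the spleen 1, 0 and 0 reads. The liver mean of 18.9 ± 31.9 (SD, n = 3) therefore came from liver replicate 2 alone, where the value was 55.8. The thymus mean of 5079 ± 4996 was itself uneven, with thymus replicate 2 far above the other thymus replicates. A count of 0 allows up to 3 reads, which is a value of 18.1 in the shallow liver replicate 3 and of 1.80 to 3.76 in the other libraries; such limits cover counting error only.

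The thymus mean of Ccr8 was 269-fold the liver mean and at least 2499-fold higher than in spleen, set against 3 reads in each spleen library. Without thymus replicate 2 these were 117-fold and at least 1084-fold, and without liver replicate 2 the thymus mean was at least 489.5-fold higher than in liver. The fitted log2 fold changes were -9.61 in liver (SE 1.89, adjusted p = 0.0435 by limma-trend) and -11.60 in spleen (SE 1.89, adjusted p = 0.0131 by limma-trend). Ccr8 met the filter only through its thymus values, so it was bound to differ once tested, and these p-values are given as a description. With no filter the adjusted p by limma-trend was 0.064 in liver and 0.0212 in spleen. In bulk RNA, fewer cells that express a receptor and less RNA per cell cannot be told apart, here and for every gene above and below. Over the libraries numbered 1 and 3, Ccr8 no longer passed the filter and had no test.

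Cxcr4, the widely expressed CXCL12 receptor, was low and variable. It stood at 291, 591 and 384 in the thymus, at 8.67, 45.5 and 159 in the liver and at 583, 256 and 68.9 in the spleen. The liver values lay below all thymus values, and the spleen values overlapped both. The means were 422 ± 153, 70.9 ± 78.2 and 303 ± 260 (SD, n = 3). The differences of liver from thymus (log2 fold change -3.29, SE 1.32, adjusted p = 0.349 by limma-trend) and of spleen from thymus (-0.89, SE 1.32, adjusted p = 0.824 by limma-trend) did not pass. B cells also carry this receptor. Spleen replicate 1, with the highest B cell marker sum, had the highest spleen Cxcr4. Spleen replicate 3 had a higher sum than spleen replicate 2 (203 against 65.9) and less Cxcr4. Liver replicate 1, with the highest liver sum at 759, had the lowest liver Cxcr4. The part of B cells in the Cxcr4 differences was not tested.

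Ccr7, the receptor of naive and central memory T cells, was unread in the thymus, with 0 reads in all 3 libraries. In the liver it had 60, 14 and 0 reads, values of 52.2, 12.0 and 0.795, and in the spleen 1, 0 and 0 reads. Only liver replicates 1 and 2 therefore held more than 3 reads, and liver replicate 3, with 0 reads at its depth, allows a value of up to 18.1. The liver mean of 21.7 ± 27.1 (SD, n = 3) was at least 6.14-fold the level that 3 reads give in the thymus libraries and at least 10.7-fold that of the spleen libraries. Without liver replicate 1 the mean was 6.39, and these bounds dropped to 1.81 and 3.14. Ccr7 had no test in the main fit. With no filter its adjusted p by limma-trend was 0.361 in liver and 0.979 in spleen against thymus, and 0.9999 between liver and spleen. Liver replicate 1, with the most Ccr7 reads, had the highest B cell marker sum of the liver libraries, 759. Liver replicate 2, with 14 Ccr7 reads, had the lowest, 5.95, and spleen replicate 1, with 1 Ccr7 read, had a sum of 4283. The part of B cells in the Ccr7 reads was not tested.

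Scaled to length, Cxcr6 had the highest mean of the 7 genes in every tissue, at 8423 ± 2147 per kilobase of annotated exon in the thymus, 20296 ± 751 in the liver and 14428 ± 3482 in the spleen (SD, n = 3). In the thymus Ccr8 came next on this scale, at 4323 ± 4252, a spread that reaches both Cxcr6 above it and Cxcr3 below it, at 2267 ± 1571, with Ccr2 at 1111 ± 250. In thymus replicate 2 Ccr8 stood above Cxcr6, at 9216 against 6320 per kilobase. In liver and spleen Cxcr3 and Ccr2 followed Cxcr6, at 4568 ± 386 and 2662 ± 187 per kilobase in the liver and at 3509 ± 94.5 and 1796 ± 247 in the spleen. Ccr9 lay at 33.0 ± 31.6, 357 ± 34.0 and 624 ± 197 per kilobase in thymus, liver and spleen. The place of Cxcr3 and Ccr2 depends on the gene model. With the length of the transcript that has the longest coding sequence, 2265 bases in place of 6760 for Ccr2, Ccr2 reached 7943 per kilobase in the liver and 5361 in the spleen and stood above Cxcr3 in all 3 tissues. On that scale Ccr9, with 3004 bases, reached 113, 1220 and 2131.

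Ccr8, which met the filter only through its thymus values, is left out of the counts of this paragraph, a choice made after its values were seen. Of the other 5 tested receptors, 3 passed in liver against thymus, Cxcr6, Ccr2 and Ccr9, all upward, where 43 of 13309 genes (0.323%) passed. In spleen against thymus 1 passed, Ccr9, upward, where 53 genes (0.398%) did. Both comparisons use the same 3 thymus libraries. The values of the 2 tissues did not overlap for 5 of the 5 in liver against thymus and for 3 in spleen against thymus, where 15.3% of all tested genes did not overlap in each. The median log2 fold change of the 5 was 1.29 in liver and 0.78 in spleen against thymus, beside medians over all tested genes of 0.29 and 0.33. An upward median was not particular to them: that of the 6 other chemokine receptors tested below was higher, 1.675 and 1.85. Those medians rest on low values, as Ccrl2 and Xcr1 had 0 reads and Ccr4 had 9 in thymus replicate 1. The log2 fold change of Ccrl2 in liver against thymus was 2.24, although its means were 276 in liver and 294 in thymus. Rescaling every library to the same total moved those all-gene medians to 0.43 and 0.48, so differences are also given relative to the all-gene median: 1.01 for Cxcr6 and 0.99 for Ccr2 in liver against thymus, 3.75 for Ccr9 in liver and 4.48 for Ccr9 in spleen. An F-test for any tissue difference (limma-trend) passed for Ccr9 (adjusted p = 0.00651) and Cxcr6 (0.0355) and missed for Ccr2 (0.061), where 46 genes (0.346%) passed.

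**Figure D2:**
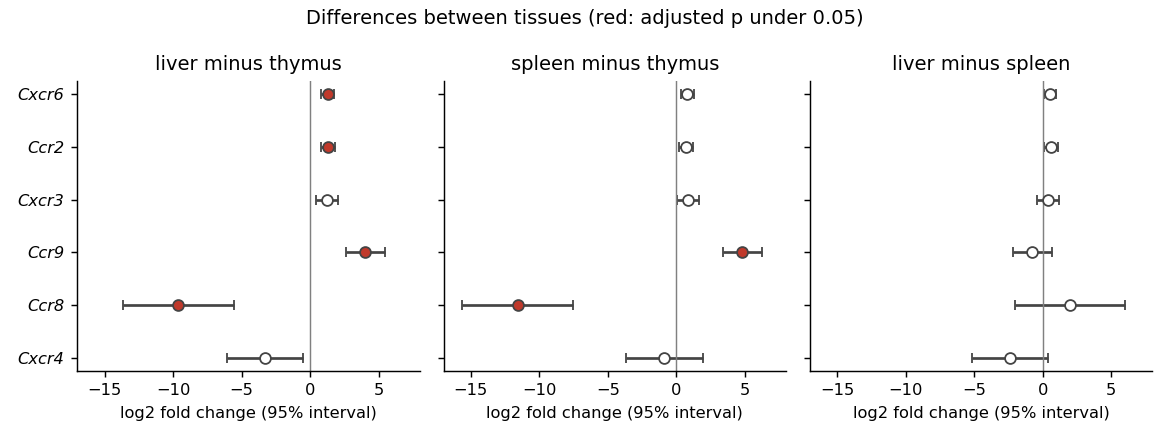
Log2 fold change of 6 receptors between tissues with its 95% interval from limma-trend, over 3 libraries per tissue; filled points passed an adjusted p of 0.05. Ccr9 lies to the right and Ccr8 to the left of 0 in both comparisons with the thymus, and no receptor passed between liver and spleen. Ccr8 met the filter only through its thymus values, so its points are a description.

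The calls in liver against thymus sat near the threshold. Leaving out any single liver library, which leaves 2, ended all of them, that of Ccr8 included: Cxcr6 then had adjusted p-values by limma-trend of 0.0932 to 0.147 with log2 fold changes of 1.27 to 1.33, and Ccr9 of 0.0932 to 0.133 with log2 fold changes of 3.96 to 4.10. Ccr2 also missed without spleen replicate 2 or 3, and Ccr8 without any library other than thymus replicate 3. Counted over all alternatives, Ccr9 passed in 13 of 19, Cxcr6 in 12 of 19, Ccr2 in 11 of 19 and Ccr8 in 5 of 18. With a term for the libraries with nearly no Y-linked reads, Cxcr6, Ccr2, Ccr9 and Ccr8 passed in liver and Ccr9 and Ccr8 in spleen against thymus. With edgeR's quasi-likelihood test on the recovered reads, the adjusted p in liver against thymus was 0.0612 for Cxcr6, Ccr2 and Ccr9 and 0.0559 for Ccr8. That test called 17 of 12522 genes (0.136%). DESeq2 called all 4 receptors, but it called 487 of 11787 genes (4.13%) in that comparison. In spleen against thymus Ccr9 passed in 18 of 19 alternatives, and its direction held in every alternative. Ccr8 passed in 15 of 18 and kept its direction in those that tested it. This is a description, since Ccr8 met the filter only through its thymus values, and its constant direction adds no support. The exception for Ccr9 was the fit without spleen replicate 3 (adjusted p = 0.0576 by limma-trend). For Ccr8 the call ended without spleen replicate 1, 2 or 3 (adjusted p = 0.0599, 0.0683 and 0.079 by limma-trend).

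**Figure D3:**
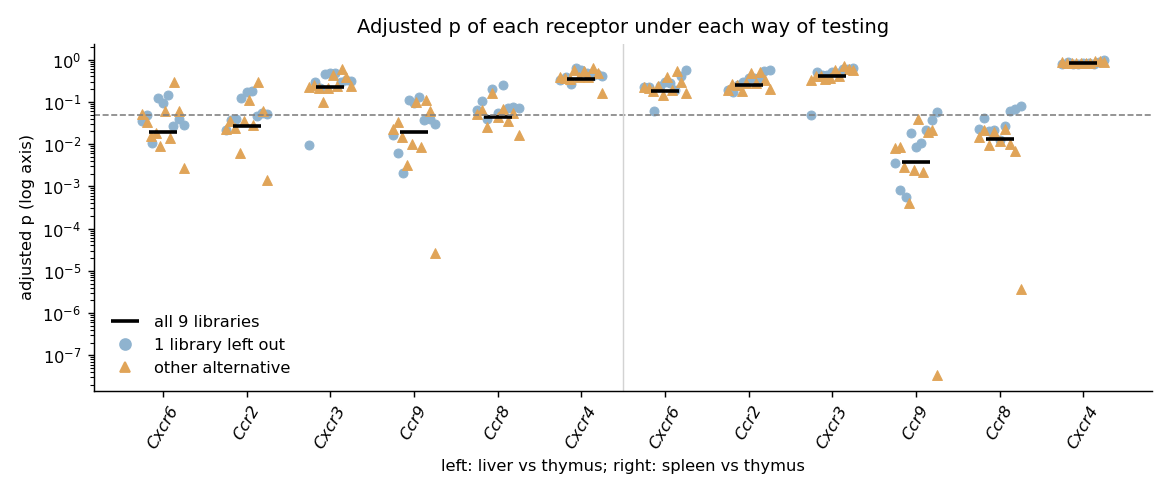
Adjusted p-value of each receptor against the thymus on a log axis; the bar is the fit of all 9 libraries, circles leave out 1 library, triangles are other alternatives and the dashed line is 0.05. Ccr9 in spleen lies under the line in all but 1 fit, while Cxcr6, Ccr2, Ccr9 and Ccr8 in liver cross it.

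No receptor passed between liver and spleen by limma-trend, where 2 of 13309 genes (0.0150%) did; 2 receptors had an unadjusted p under 0.05 (3.03% of all genes did), and edgeR and DESeq2 called 0 (0.0160% and 0.209% of all genes). The liver was higher for Cxcr6 by 0.52 on the log2 scale (95% interval 0.05 to 0.99) and for Ccr2 by 0.57 (0.08 to 1.07), with adjusted p-values by limma-trend of 0.9999 for both. Ccr9 differed by -0.76 (95% interval -2.18 to 0.66) and Cxcr3 by 0.38 (-0.42 to 1.18). The intervals of Ccr8 (-2.04 to 6.02) and Cxcr4 (-5.20 to 0.40) were too wide to place either gene. The values of liver and spleen did not overlap for 4 receptors, Cxcr6, Cxcr3, Ccr2 and Ccr9, against 12.7% of all tested genes.

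Because both values of a ratio come from the same library, Ccr9 was also set against Cxcr6, a comparison chosen after the values were seen. Per 100 of Cxcr6, Ccr9 stood at 1.63, 0.484 and 3.38 in the thymus, at 8.61, 10.8 and 8.76 in the liver and at 21.8, 21.5 and 24.9 in the spleen. The 3 tissues separated completely, with spleen 2.43-fold above liver as a ratio of geometric means. Exact two-sided permutation tests gave p = 0.1 in each of the 3 pairwise comparisons, the smallest p that 3 against 3 libraries allow. Values that separate completely can give no other p, so these tests restate the separation and add nothing to it. The ratio is of counts not scaled to length.

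Of 16 other chemokine receptors examined here, 8 were in the table and 6 were tested. In each of the 3 comparisons 0 of the 6 passed by limma-trend, with 0 at an unadjusted p under 0.05 and 0 by edgeR and by DESeq2. Ccr4, a receptor linked to type 2 cells, had the highest mean count of these 8. It ranged from 10.1 to 2549 within the thymus alone and did not pass (adjusted p = 0.557 and 0.837 by limma-trend in liver and spleen against thymus).

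Ccr2, Ccr9 and Cxcr6 lie close together on chromosome 9. Of 18 genes of that chromosome examined as a list, 13 lie at chr9:123478706-124113557 with these 3, and the other 5, Ccrl2, Ltf, Rtp3, Lrrc2 and Tdgf1, lie far from them at chr9:110939603-111057519. In the region of the 3 receptors 9 genes were tested: 3 rose in liver against thymus, the 3 receptors, and 1 rose in spleen against thymus, Ccr9. The median log2 fold change of these 9 was 1.29 in liver and 0.78 in spleen against thymus, values that belong to 2 of the receptors themselves, Ccr2 and Cxcr6. The other 6 did not pass in either comparison, nor did the 2 tested genes of the distant region. Fyco1, which spans Cxcr6, had means of 3466, 3106 and 2667 in thymus, liver and spleen, and Lztfl1, inside the span of Ccr9, had means of 992, 1077 and 1211. Limd1 and Sacm1l stood at means of 2911 and 730 in the thymus, 3090 and 1986 in the liver and 1090 and 1128 in the spleen. Xcr1 and Ccrl2 had 0 reads in thymus replicate 1; elsewhere Xcr1 ranged from 69.3 to 506 and Ccrl2 from 150.5 to 648. Slc6a20b averaged 11.3, 26.4 and 63.8, Lrrc2 29.2, 12.0 and 0.403, and Ccr3, Tdgf1 and Slc6a20a did not pass the filter, Ccr3 with reads almost only in spleen replicate 1, where it stood at 190. Slc6a20a, whose exons overlap those of Ccr9, had a value of at most 2.69 in any library.

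**Figure D4:**
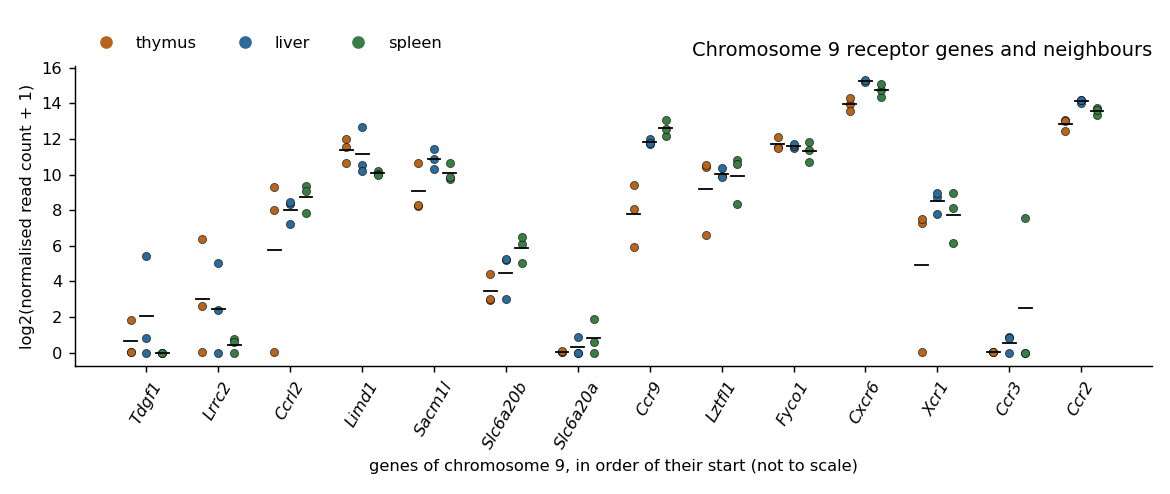
Normalised read counts, as log2(value + 1), of 14 chromosome 9 genes in the 3 thymus, 3 liver and 3 spleen libraries, in order along the chromosome; lines are means of 3. Tdgf1, Lrrc2 and Ccrl2 lie in a distant region. Ccr9, Cxcr6 and Ccr2 lie lower in the thymus, while Fyco1, drawn between Ccr9 and Cxcr6 and spanning Cxcr6, has overlapping values in all tissues.

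No gene of the ligand, signalling or desensitization lists passed by limma-trend. Of 35 listed chemokines 12 were in the table and 10 were tested, with 2, 2 and 0 at an unadjusted p under 0.05 in liver against thymus, spleen against thymus and liver against spleen, 0 by edgeR in each and 1, 2 and 0 by DESeq2. Over all genes the shares at an unadjusted p under 0.05 were 11.6%, 11.7% and 3.03% in the same order, and DESeq2 called 4.13%, 4.47% and 0.209% and edgeR 0.136%, 0.256% and 0.0160%. The highest mean counts were those of Ccl5, a chemokine made by effector T cells, with means of 2590, 6599 and 7603 in thymus, liver and spleen, and Xcl1, the ligand of XCR1, with means of 3517, 3901 and 3336. Cxcl16, the CXCR6 ligand, had a value of at most 114 in any library. Of the 33 tested genes for signalling downstream of the receptors, 5, 8 and 3 had an unadjusted p under 0.05, edgeR called 0 in each comparison and DESeq2 called 1, 0 and 0; the highest mean counts were those of Dock2, an activator of Rac, at means of 18088, 22289 and 19371, and Rac2 at 13842, 28783 and 16719. Of the 19 tested genes for desensitization, 5, 4 and 1 had an unadjusted p under 0.05, edgeR called 0 in each and DESeq2 called 4, 4 and 1. The highest mean counts there were those of Itch, a ubiquitin ligase, at 5493, 6309 and 6016 and Rgs3, a regulator of G protein signalling, at 6429, 4408 and 3814. The median log2 fold changes of the signalling list in liver and spleen against thymus were 0.11 and -0.06, and those of the desensitization list 0.35 and -0.16. Those of the ligand list were 3.17 and 1.79, and they rest in part on genes near 0. Ccl1, Ccl3 and Cxcl16 had 0 reads in every thymus library, and Ccl3 had 588, 3 and 0 reads in the liver.

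Among 20 regulators and adhesion genes with a known tie to these receptors, 1 passed, Itgae, which encodes the αE integrin chain that pairs with β7. Itgae stood at 6590, 3586 and 7786 in the thymus, at 382, 26.6 and 13.1 in the liver and at 58.1, 35.0 and 22.1 in the spleen. Like Ccr8 it was high in the thymus alone, and it fell in liver (log2 fold change -6.75, SE 1.21, adjusted p = 0.0261 by limma-trend) and spleen (-7.28, SE 1.21, adjusted p = 0.0146 by limma-trend). The call held in 12 of 19 alternatives in liver (adjusted p up to 0.296) and in 15 of 19 in spleen (up to 0.117). In liver it was lost without thymus replicate 1, 2 or 3 or liver replicate 2 or 3 and by edgeR (adjusted p = 0.0612), and in spleen without spleen replicate 1, 2 or 3, and in both over the libraries numbered 1 and 3. The log2 fold change in liver ran from -8.17 without liver replicate 1 to -5.79 without liver replicate 3. The highest mean counts among regulators were those of Zfp683, which encodes Hobit, with means of 9909, 12117 and 6236 in thymus, liver and spleen, and Runx1 with means of 3273, 5889 and 6515, and neither passed. The median of the list was 0.22 in liver and 0.17 in spleen against thymus.

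The genes whose levels tracked each receptor most closely were found by Pearson's r of log2(value + 1) over the 9 libraries, among up to 8885 genes with a mean of at least 100. These r describe 9 libraries that share tissues and depths, and carry no test. Cxcr6 was most like H2-K1, a class I major histocompatibility gene, and Itgal, the integrin αL chain (r = 0.957 and 0.956). Ccr2 was most like Cd93 (r = 0.954) and Nedd9 (r = 0.952), with Nedd9 at means of 4925, 12070 and 8069 in thymus, liver and spleen. Cxcr3 was most like Aqp9 (r = 0.973) and Cd200r1 (r = 0.963), both higher in thymus replicate 1 than in the other thymus libraries, with a thymus maximum of 895 and 536. Ccr9 was most like Naa38 (r = 0.986) and Fam160a2 (r = 0.978), the latter with means of 45.8, 598 and 1188. Ccr8 was most like Arpc1b (r = 0.984), which spans only 7941 to 13320 across the libraries, and Pmepa1 (r = 0.971), with means of 2642, 62.6 and 26.4. Cxcr4 was most like Ppan (r = 0.963) and Bclaf1 (r = 0.947).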

How the data were processed

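The authors deposited 1 table of normalised read counts for 14004 genes and 9 libraries (total RNA, Qiagen micro kit, Nugen Ovation Ultralow libraries, NextSeq500, per the labels). The submitters' processing notes name Trimmomatic 0.33, TopHat2 2.1.0, HTSeq 0.6.1, edgeR and mm10, without roles. The deposited values are a signal, not whole counts. Reads were recovered from the step between low values; 92.9% of 15739 low values lay within 0.1 reads of a whole number (71.0% in liver replicate 3, 97.7% or more elsewhere). Totals were 3871264 to 39604258 reads. Symbols matched 13359 identifiers.

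The main test was limma-trend (limma 3.58.1, R 4.3.3) on log2(value + 1), which understates changes of low genes, over the 13309 genes that reached a value of 1 in 3 or more libraries, 1 fit of 9 libraries with a term per tissue, two-sided, with Benjamini-Hochberg adjustment and a threshold of 0.05. Counts of reads, recovered from the deposited values, were tested with edgeR 4.0.16 (quasi-likelihood) and DESeq2 1.42.0. Other alternatives were scaling, filter, pseudocount 2, array weights, a replicate block, only the 6 samples compared and leaving out each library; a term for libraries with nearly no Y-linked reads, the libraries numbered 1 and 3 alone and the transcript length were chosen after seeing the data. The procedures were tested on simulated data. The members, gene lists, motifs and markers were chosen with earlier results of these data known. Named were all members, per member the 2 most similar genes, of each list the genes past the threshold and the 2 with the highest mean, and the genes of the chromosome 9 list; 1 listed receptor gene is not reported here; other genes named as examples were chosen after their values were seen.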

Additional observations from a re-analysis of the deposited data

How the results depend on the processing

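The number of the 7 receptors past the threshold in liver against thymus, 4 with Ccr8, became 2 with equal library totals (Ccr2 and Ccr9), 0 with only the 6 samples compared, 0 over the libraries numbered 1 and 3, 0 with edgeR, and 0 to 4 without 1 library: 0 without any liver library and 2 without spleen replicate 2 or 3. Fits without a library or over 6 samples hold fewer samples. For the scaling and edgeR the cause was not tested. Ccr8, which met the filter only through its thymus values, is counted here as a description. In spleen against thymus the 2, Ccr9 and Ccr8, became 1 over the libraries numbered 1 and 3 and 0 to 3 without 1 library: 3 without thymus replicate 1, 1 without spleen replicate 1 or 2 and 0 without spleen replicate 3. In liver against spleen it stayed at 0 in every alternative run. Of 338 alternative fold changes of single receptors, 298 kept direction and call, 38 kept direction and lost the call, 2 kept direction and gained it, and 0 changed direction. Over all genes, 43 in liver against thymus became 12 with the 6 samples, 12 over the libraries numbered 1 and 3, 17 with edgeR, 487 with DESeq2 and 8 to 151 without 1 library; 53 in spleen against thymus became 16, 19, 32, 536 and 9 to 140; and 2 in liver against spleen became 18 with array weights, 6 with the 6 samples, 0 over the libraries numbered 1 and 3, 27 with DESeq2 and 0 to 3 without 1 library. With a replicate block 4 genes passed there, and 4, 2 and 0 receptors in the 3 comparisons; same-numbered libraries had correlations of -0.000732 to 0.0891, all under 0.1, so the numbers were not taken as pairs. As a hint from the data, 8 of 9 such correlations were positive against 5 of 18 between different numbers, 8 of 9 libraries correlated best on average with their own number, and the libraries numbered 2 share the near lack of Y-linked reads. The order of tissue means changed for Ccr7 alone, without spleen replicate 1. The low depth of liver replicate 3, 3871264 reads, limits what its zeros for Ccr8 and Ccr7 show.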

Other observations

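Of 59 marker genes tested beside the receptors, limma-trend called 1 in liver against thymus and 2 in spleen against thymus. Il7r, which encodes the interleukin-7 receptor α chain, stood at 39747, 50118 and 27831 in thymus replicates 1, 2 and 3, at 4131, 4674 and 2109 in the liver and at 15547, 17003 and 8546 in the spleen. It fell 10.8-fold from thymus to liver (log2 fold change -3.47, SE 0.34, adjusted p = 0.0002 by limma-trend) and passed in 19 of 19 alternatives, which none of the 7 receptors did in that comparison. The values of the 3 tissues did not overlap, with the spleen between the others (adjusted p = 0.0652 by limma-trend against thymus and 0.127 against liver). Klre1, a natural killer cell receptor gene, stood at 2753, 3956 and 3170 in the thymus, at 1494, 1281 and 1587 in the liver and at 598, 685 and 436 in the spleen, and fell in spleen against thymus (log2 fold change -2.53, SE 0.44, adjusted p = 0.0181 by limma-trend). That call held in 14 of 19 alternatives (adjusted p up to 0.237) and was lost without spleen replicate 1, 2 or 3, with only the 6 samples compared and over the libraries numbered 1 and 3. Gzma, which encodes granzyme A, fell in the same comparison (log2 fold change -3.98, SE 0.79, adjusted p = 0.0412 by limma-trend), from 4179, 7043 and 3087 to 681, 204 and 166. It passed in only 9 of 19 alternatives (adjusted p up to 0.308), and without 1 library it passed only when liver replicate 1 or 2 was left out. Without spleen replicate 1 its log2 fold change was -4.60.

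Thymus replicate 3 held both Xist reads (13189) and reads of 4 Y-linked genes (7009), while the libraries numbered 2 had at least 83442 of the former and at most 21 of the latter, and the remaining libraries at most 168 and at least 1454. It was also the only library with a Rag1 value above 1, at 486.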
